A study of Mus musculus with 72 samples.

Results

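The hippocampus and the neocortex were compared in the same mice. The members are the 36 libraries, of 72 in the series, whose brain region label is Hippocampus (18 libraries) or Neocortex (18 libraries). Each of 18 C57BL/6J female mice gave 1 library of each region, so every comparison of the regions was made within a mouse. The mice belonged to 6 stages with 3 mice each: randomly cycling, age-matched virgin females, dams at post-conception days 14 and 16 (PC14 and PC16), and dams nursing on day 1 (PP1), day 3 (PP3) or day 10 (PP10) after giving birth. A mouse is named here by its library title without the letter of the region (P156, E1467, VirB). The study obtained its mice at 8 weeks of age, before breeding. The 15 dams were nulliparous females bred to C57BL/6J males, and the labels name no transgene and no agent for any mouse. A library is the mRNA sequencing profile of a whole dissected region of 1 brain, so it mixes neurons, glia, vessels and any neighbouring tissue carried along, and fewer cells of a type cannot be told apart from less RNA per cell.

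Both regions are parts of the cortical sheet of the forebrain and are built mainly from glutamatergic pyramidal neurons with GABAergic interneurons among them. The neocortex has 6 layers whose neurons are set apart by transcription factors such as Cux2, Fezf2 and Tbr1. The hippocampus has a single pyramidal layer divided into the fields CA1, CA2 and CA3, and the dentate gyrus, whose granule cells require Prox1 and go on being generated in the adult. It is known for a high level of the mineralocorticoid receptor and of the GABA-A receptor subunit alpha5, and it borders the lateral ventricle, where the choroid plexus secretes cerebrospinal fluid.

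The hippocampus libraries held 11537125 to 14022299 counts (median 13013022) and the neocortex libraries held 8875029 to 12303905 counts (median 11634560). Levels are given as CPM (counts scaled to library size) after scaling for library composition, and differences as log2 fold changes, hippocampus minus neocortex, with their standard error (SE) over the 18 mice. The markers of the labels held. Fibcd1, a marker of CA1 pyramidal cells, lay between 202 and 257 CPM (median 221) in hippocampus libraries, against 7.73 to 12.9 CPM (median 9.89) in neocortex libraries. Lamp5, which marks superficial neocortical layers, lay between 27.3 and 39.6 CPM (median 33.8) in hippocampus libraries, against 230 to 338 CPM (median 278) in neocortex libraries. Neither gene's ranges overlapped, and the log2 differences were 4.49 ± 0.04 for Fibcd1 (a 22.5-fold higher level) and -3.09 ± 0.03 for Lamp5 (an 8.51-fold lower level). Hippocampus libraries of 5 mice stood apart by a low level of choroid plexus RNA: those of the 3 virgins (mice VirB, VirM and VirO), of mouse P156 (PP1) and of mouse P353 (PP3). Their transthyretin (Ttr) levels were 52.5 to 1255 CPM, against 2215 to 5021 CPM in the hippocampus of the other 13 mice.

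Most genes differed a little between the regions, and a small share differed by more than 2-fold. Of 14239 genes tested, 10693 passed an adjusted p of 0.05 (75.1%; edgeR's quasi-likelihood test with the mouse as a block, Benjamini-Hochberg adjustment), 5678 of them higher (39.9%) and 5015 lower (35.2%) in the hippocampus. With 18 pairs the test called small differences: 8304 of the calls were under 1.5-fold, and the median SE of a log2 difference was 0.03. A call at an adjusted p under 0.05 and a fold change of at least 2 was made for 1159 genes, of which 659 were higher (4.63%) and 500 lower (3.51%) in the hippocampus. Beyond 4-fold, 241 genes were higher and 120 lower, and beyond 8-fold, 121 were higher and 35 lower. The 18 hippocampus libraries and the 18 neocortex libraries did not overlap at all for 3105 genes (21.8%), which included 886 of the 1159. The difference had 1 sign in all 18 mice for 1047 of the 1159 and in all 6 stages for 1153.

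**Figure D1:**
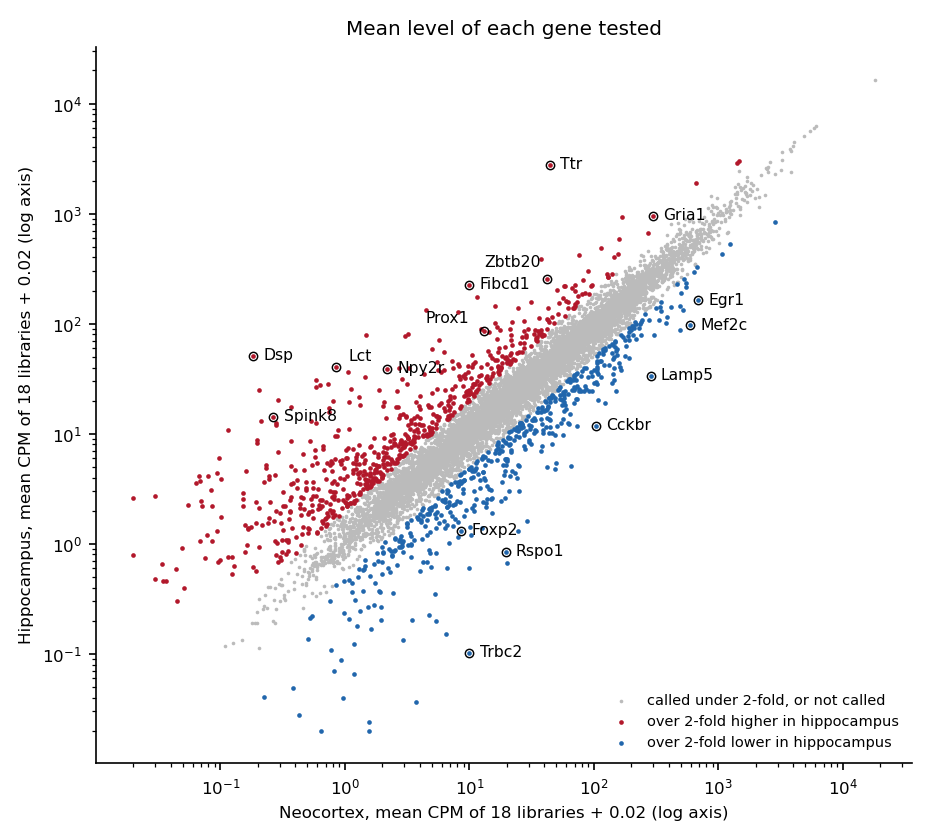
Mean CPM of each of the 14239 genes tested in the hippocampus (vertical axis) against the neocortex (horizontal axis), both on log axes with a small constant added, over 18 libraries each. Red points are the 659 genes over 2-fold higher and blue points the 500 over 2-fold lower in the hippocampus, and circles mark named genes: Dsp and Spink8 lie far above the diagonal with almost no neocortical signal, and Trbc2 lies far below it.

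The genes over 2-fold apart were not all genes of 1 of these regions alone. To rank the 4 dissected regions, mean CPM without the scaling for library composition was used, and the spread was not taken into account. Of the 659 that were higher in the hippocampus, 359 had their highest mean level of the 4 dissected regions there, 189 in the hypothalamus and 111 in the cerebellum. Of the 500 that were lower, 350 were highest in the neocortex, 64 in the hypothalamus and 86 in the cerebellum.

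Among the 15 largest increases that fitted the naming rule (a mean of at least 5 CPM in the higher region and 1 sign in all 18 mice), 7 genes separated the regions without overlap. Dsp, which encodes the desmosomal plaque protein desmoplakin and marks dentate granule cells, lay between 30.8 and 71.8 CPM (median 50.6) in the hippocampus, against 0 to 0.467 CPM (median 0.0930) in the neocortex. Its fitted log2 difference was 8.20 ± 0.09. Lct, the lactase gene, whose transcript is also known from granule cells, lay between 31.3 and 62.6 CPM (median 38.9) in the hippocampus and between 0.448 and 1.31 CPM (median 0.803) in the neocortex, a log2 difference of 5.59 ± 0.06. The other 5 included Slc9a4 (a sodium-proton exchanger, 6.01 ± 0.12), Spink8 (a serine peptidase inhibitor, 5.75 ± 0.11), Krt2 (a keratin, 5.58 ± 0.14) and Gpr101 (an orphan G protein-coupled receptor, 5.54 ± 0.15). The remaining 8 of the 15 were Slc4a5, Tmem72, Cldn2, Krt18, Ttr, Folr1, Prlr and Kcne2. Of these 8, 7 belong to the choroid plexus list described further on, and the ranges of all 8 overlapped.

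All 15 of the largest decreases separated the regions without overlap. Trbc2, a constant segment of the T cell receptor beta chain, lay between 0 and 0.283 CPM (median 0.0781) in the hippocampus, against 8.45 to 12.1 CPM (median 9.72) in the neocortex, a log2 difference of -6.72 ± 0.15. Its reads may be shared with the near-identical Trbc1, so the level of this gene alone is uncertain. Dkkl1, a dickkopf-like secreted protein, had a log2 difference of -4.94 ± 0.09, and the keratin gene Krt80 one of -4.81 ± 0.15. Rspo1, an R-spondin that amplifies Wnt signalling, lay between 0.423 and 1.31 CPM (median 0.808) in the hippocampus and between 13.5 and 24.5 CPM (median 19.8) in the neocortex, a log2 difference of -4.54 ± 0.09. Rasgef1c, Myl4 (an embryonic and atrial myosin light chain), Cd6 (a T cell surface glycoprotein), Adam33, Igfn1, Ovol2 (a zinc finger factor) and Sowahb followed, with log2 differences from -4.22 to -3.18. The list closed with genes described below by their roles: Cckbr, Kcnh5, Lamp5 and Adra1b.

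The plot of paired levels shows 12 genes, 1 point per library, of which Fibcd1, Dsp, Gria1, Gabra5, Nr3c2, Lamp5, Mef2c, Cux2, Cckbr and Gabrd separate the regions in every mouse with no overlap between libraries. Ttr and Fos differ in the same way within every mouse, with ranges that overlap between mice.

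**Figure D2:**
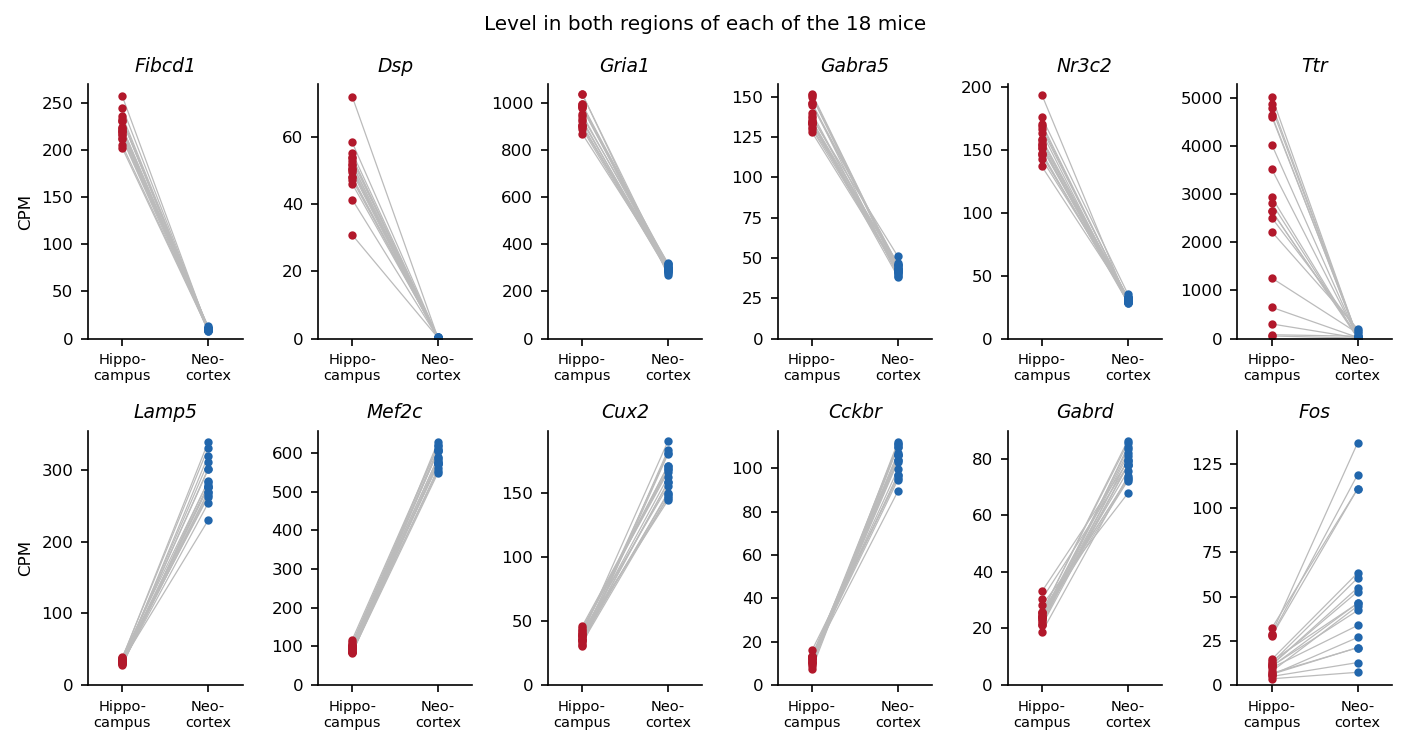
Level in CPM (vertical axis, from 0) of 12 genes in the hippocampus (red, left) and the neocortex (blue, right) of each of the 18 mice, with a grey line joining the libraries of a mouse. Fibcd1 sits between 202 and 257 CPM in the hippocampus and between 7.73 and 12.9 CPM in the neocortex, whereas the hippocampal Ttr values run from 52.5 to 5021 CPM.

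Genes of the hippocampal fields were mostly higher in the hippocampus, with a few on the same lists that were lower. Among the 15 dentate granule cell genes, 12 were higher (80.0%, against 39.9% of all genes), 2 lower (13.3%, against 35.2%) and 1 not called. Over 2-fold higher were 9 of the 15, against 4.63% of all genes. The median log2 difference was 1.55, against 0.02 over all genes tested. Prox1, the transcription factor that granule cells require, lay between 74.7 and 120.0 CPM (median 84.0) in the hippocampus and between 11.3 and 14.8 CPM (median 13.1) in the neocortex. The Prox1 ranges did not overlap and the log2 difference was 2.71 ± 0.04. C1ql2, a complement-like synaptic protein of mossy fibres, had a log2 difference of 3.98 ± 0.07. Npnt (-0.83 ± 0.04) and Pdzd2 (-0.55 ± 0.03) were the 2 lower members, and Stxbp6 had 0.05 ± 0.03 (adjusted p = 0.15).

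In the CA fields, 4 of 5 tested CA1 genes, 4 of 5 CA2 genes and 4 of 6 CA3 genes were higher. These shares were 80.0%, 80.0% and 66.7%, against 39.9% of all genes, and the median log2 differences were 0.87, 1.39 and 0.97. For CA1, the mannosidase gene Man1a (1.16 ± 0.03) and the endoplasmic reticulum protein gene Wfs1 (0.87 ± 0.05) stood beside Fibcd1, and Mpped1 was slightly lower (-0.17 ± 0.02). For CA2, Rgs14, a regulator of G protein signalling that restrains synaptic potentiation there, lay between 78.5 and 110 CPM (median 84.6) in the hippocampus, against 28.6 to 38.5 CPM (median 32.9) in the neocortex. Necab2 (2.11 ± 0.05) and Amigo2 (1.92 ± 0.05) were also higher, and Pcp4, which marks CA2 but also deep neocortical layers, was lower at -0.89 ± 0.03. For CA3, Iyd was at 1.56 to 5.15 CPM in the hippocampus and 0 to 0.0938 CPM in the neocortex, the kainate receptor subunit gene Grik4 had a log2 difference of 1.28 ± 0.03, and Coch was lower at -1.97 ± 0.10. Among the 3 tested hilar mossy cell genes, Calcrl (0.82 ± 0.08) and Ociad2 (0.41 ± 0.03) were higher and Ajap1 lower (-0.19 ± 0.03), and their libraries overlapped between regions.

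Genes of the neocortical layers were mostly lower in the hippocampus for layers 2 to 4 and layer 6, and in both directions for layer 5. For layers 2 to 4, 8 of 10 were lower (80.0%, against 35.2% of all genes), with a median of -1.22. Over 2-fold lower were 7 of the 10, against 3.51% of all genes. Cux2, a homeobox factor of the upper layers, lay between 30.7 and 45.7 CPM (median 38.0) in the hippocampus and between 144 and 190 CPM (median 164) in the neocortex, a log2 difference of -2.12 ± 0.04. Rorb, a nuclear receptor of layer 4, had -1.27 ± 0.06 and Rasgrf2 had -1.18 ± 0.02. Mdga1, an adhesion protein used as an upper-layer marker, went the other way: 83.8 to 119 CPM (median 103) in the hippocampus, against 15.2 to 30.8 CPM (median 21.6) in the neocortex, a log2 difference of 2.25 ± 0.05.

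For layer 6, 10 of 13 were lower (76.9%, against 35.2% of all genes) and 3 were higher (23.1%, against 39.9%), with a median of -0.73. Foxp2, a forkhead factor of corticothalamic neurons, had a log2 difference of -2.72 ± 0.09, Syt6 -1.83 ± 0.05 and the complexin gene Cplx3 -1.62 ± 0.08. Tbr1, a T-box factor of deep-layer neurons, lay between 43.0 and 58.4 CPM (median 51.6) in the hippocampus and reached up to 193 CPM (median 181) in the neocortex without overlap, a log2 difference of -1.80 ± 0.02. Crym, which binds thyroid hormone in the cytosol and is a deep-layer marker, was higher, at 172 to 227 CPM (median 204) in the hippocampus, against 41.6 to 62.8 CPM (median 49.6) in the neocortex, as were Nr4a2 (1.05 ± 0.09) and Osr1 (0.55 ± 0.10). For layer 5, 4 of 9 tested genes were higher (44.4%, against 39.9% of all genes), 3 lower (33.3%, against 35.2%) and 2 not called, with a median of 0.04. All 3 lower genes were over 2-fold (Qrfpr -1.58 ± 0.15, Deptor -1.46 ± 0.06 and Rbp4 -1.07 ± 0.06), and 0 of the 4 higher ones were. Fezf2, the factor that specifies subcerebral projection neurons, was at 40.7 to 52.7 CPM in the hippocampus and 41.1 to 56.4 CPM in the neocortex (log2 difference -0.05 ± 0.03, adjusted p = 0.050), and Etv1 had 0.04 ± 0.03 (adjusted p = 0.31).

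**Figure D3:**
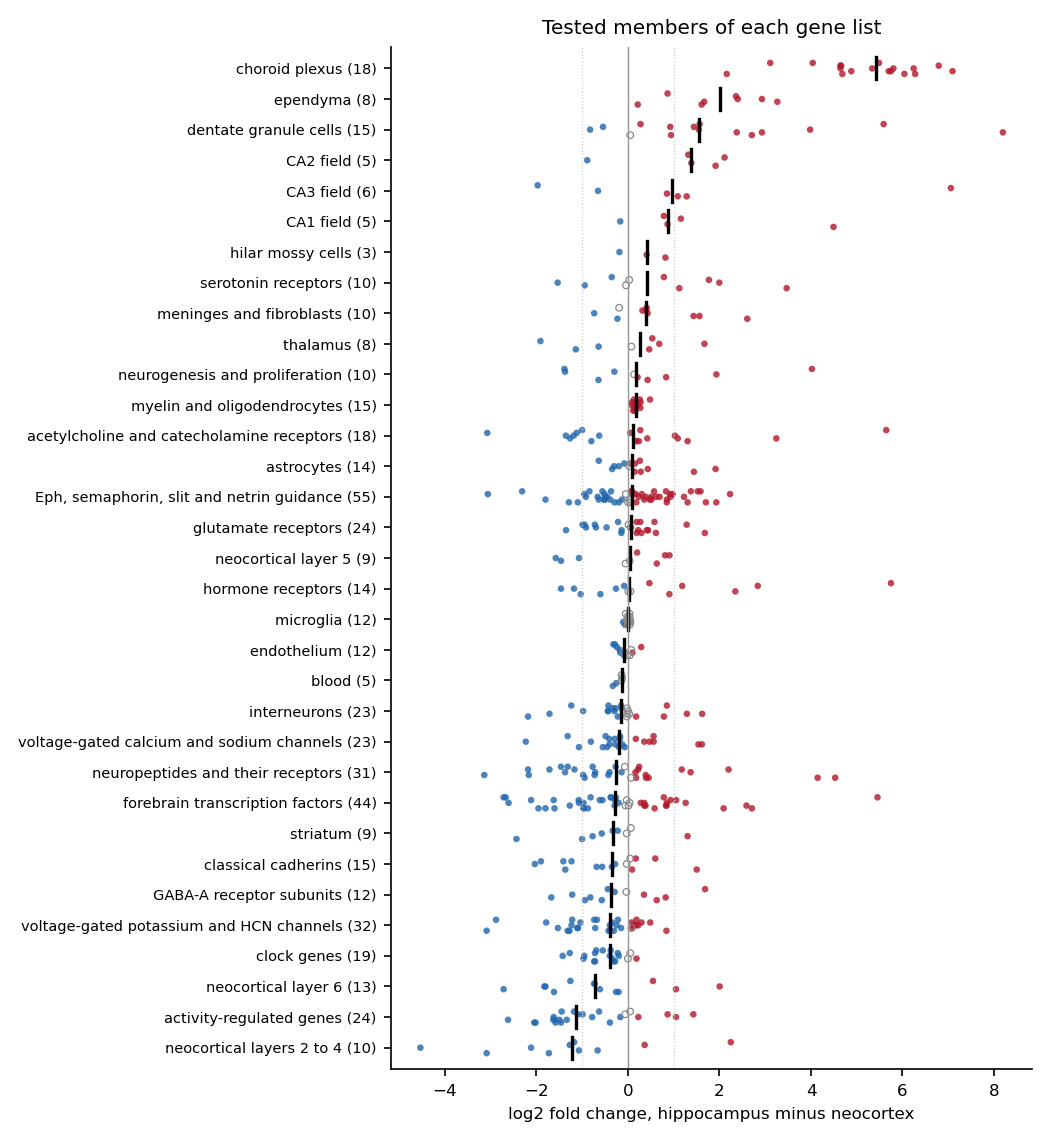
Log2 fold change, hippocampus minus neocortex (horizontal axis), of the tested members of the 33 gene lists, ordered by list median (black bar), with the number tested in brackets. Red and blue points are members called higher and lower, open points were not called, and dotted lines mark 2-fold: choroid plexus (median 5.41) stands at the top and neocortical layers 2 to 4 (median -1.22) at the bottom.

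Forebrain transcription factors differed in both directions. Of 44 factors, 16 were higher (36.4%, against 39.9% of all genes), 24 lower (54.5%, against 35.2%) and 4 not called, and 34 had hippocampus and neocortex libraries that did not overlap, against 21.8% of all genes. Lhx9, a LIM homeobox factor, was at 9.26 to 15.1 CPM (median 11.8) in the hippocampus, against 0 to 0.681 CPM (median 0.219) in the neocortex, a log2 difference of 5.45 ± 0.14. Zbtb20, a zinc finger factor needed for hippocampal identity, lay between 218 and 352 CPM (median 246) in the hippocampus and between 35.2 and 49.5 CPM (median 41.8) in the neocortex, a log2 difference of 2.59 ± 0.04. Nr2f2 (2.09 ± 0.07) and Bcl11b (1.26 ± 0.04) were higher too, as were the neuronal differentiation factors Neurod6 (0.93 ± 0.04), Neurod2 (0.85 ± 0.02) and Neurod1 (0.83 ± 0.04). In the other direction, Mef2c, a MADS-box factor that regulates synapse number, lay between 82.3 and 116 CPM in the hippocampus and between 549 and 629 CPM in the neocortex, a log2 difference of -2.61 ± 0.03. Pou3f2 (-1.96 ± 0.04), Tshz3 (-1.61 ± 0.05) and Satb1 (-1.08 ± 0.03) were also lower. The paralogs Emx1 (-0.97 ± 0.04) and Emx2 (0.38 ± 0.04), both dorsal forebrain homeobox genes, differed in opposite directions, and Bcl11a (0.01 ± 0.02, adjusted p = 0.57) and Lhx2 (-0.03 ± 0.02, adjusted p = 0.29) were not called.

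Of 24 glutamate receptor genes, 13 were higher (54.2%), 10 lower (41.7%) and 1 not called, with a median of 0.06, shares not far from the 39.9% and 35.2% of all genes. The subunits themselves ranged from -1.35 to 1.68. Gria1, the AMPA receptor subunit GluA1, lay between 870 and 1040 CPM (median 948) in the hippocampus and between 269 and 320 CPM (median 297) in the neocortex. The log2 difference of Gria1 was 1.68 ± 0.02, a 3.21-fold higher level, and it lay between 1.58 and 1.84 in each of the 6 stages. The other AMPA subunits were Gria2 (0.22 ± 0.02), Gria3 (-0.47 ± 0.02) and Gria4 (-0.95 ± 0.03). Among NMDA receptor subunits the differences were small: Grin2b 0.41 ± 0.03, Grin2a 0.29 ± 0.06 and the obligatory subunit Grin1 -0.22 ± 0.02. Among metabotropic receptors, Grm5 of group I was higher (0.58 ± 0.02) and several presynaptic ones were lower (Grm8 -1.35 ± 0.05, Grm4 -0.99 ± 0.05, Grm3 -0.70 ± 0.03).

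The subunit genes of the GABA-A receptor, a pentameric chloride channel, differed in both directions. Of 12 tested, 4 were higher (33.3%, against 39.9% of all genes), 7 lower (58.3%, against 35.2%) and 1 not called, and 10 had libraries that did not overlap, against 21.8% of all genes. Gabra5, the alpha5 subunit of extrasynaptic receptors, lay between 128 and 152 CPM (median 136) in the hippocampus and between 38.3 and 51.0 CPM (median 42.7) in the neocortex, a log2 difference of 1.69 ± 0.03. Gabrd, the delta subunit of another kind of extrasynaptic receptor, lay between 18.7 and 33.1 CPM (median 24.0) in the hippocampus and between 67.8 and 86.5 CPM (median 78.4) in the neocortex, a log2 difference of -1.68 ± 0.04. Gabra2 (0.82 ± 0.03) and Gabrb1 (0.63 ± 0.05) were higher, whereas Gabra3 (-1.22 ± 0.03) and Gabrb2 (-0.82 ± 0.03) were lower.

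For some gene pairs the order of the levels themselves was turned round between the regions, on the scale of the deposited FPKM values, which allow for gene length and sequencing depth. These pairs were chosen after their values were seen. Gria1 averaged 159 ± 7.34 FPKM beside 66.1 ± 4.21 FPKM for Gria2 in the hippocampus, against 48.7 ± 2.05 beside 55.1 ± 1.93 FPKM in the neocortex (SD, n = 18 each), and Gria1 was the higher of the pair in 18 of 18 hippocampus libraries and in 0 of 18 neocortex libraries. The corticosteroid receptors did so as well: Nr3c2, the mineralocorticoid receptor, averaged 26.7 ± 2.36 FPKM beside 10.1 ± 0.68 FPKM for Nr3c1, the glucocorticoid receptor, in the hippocampus, against 5.48 ± 0.70 beside 15 ± 0.93 FPKM in the neocortex. For the serotonin receptors Htr1a and Htr2a the order was fixed in the hippocampus only, where Htr1a was the higher in 18 of 18 libraries (6.87 ± 0.77 beside 1.26 ± 0.23 FPKM), against 5 of 18 in the neocortex (3.08 ± 0.47 beside 3.54 ± 0.56 FPKM).

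**Figure D4:**
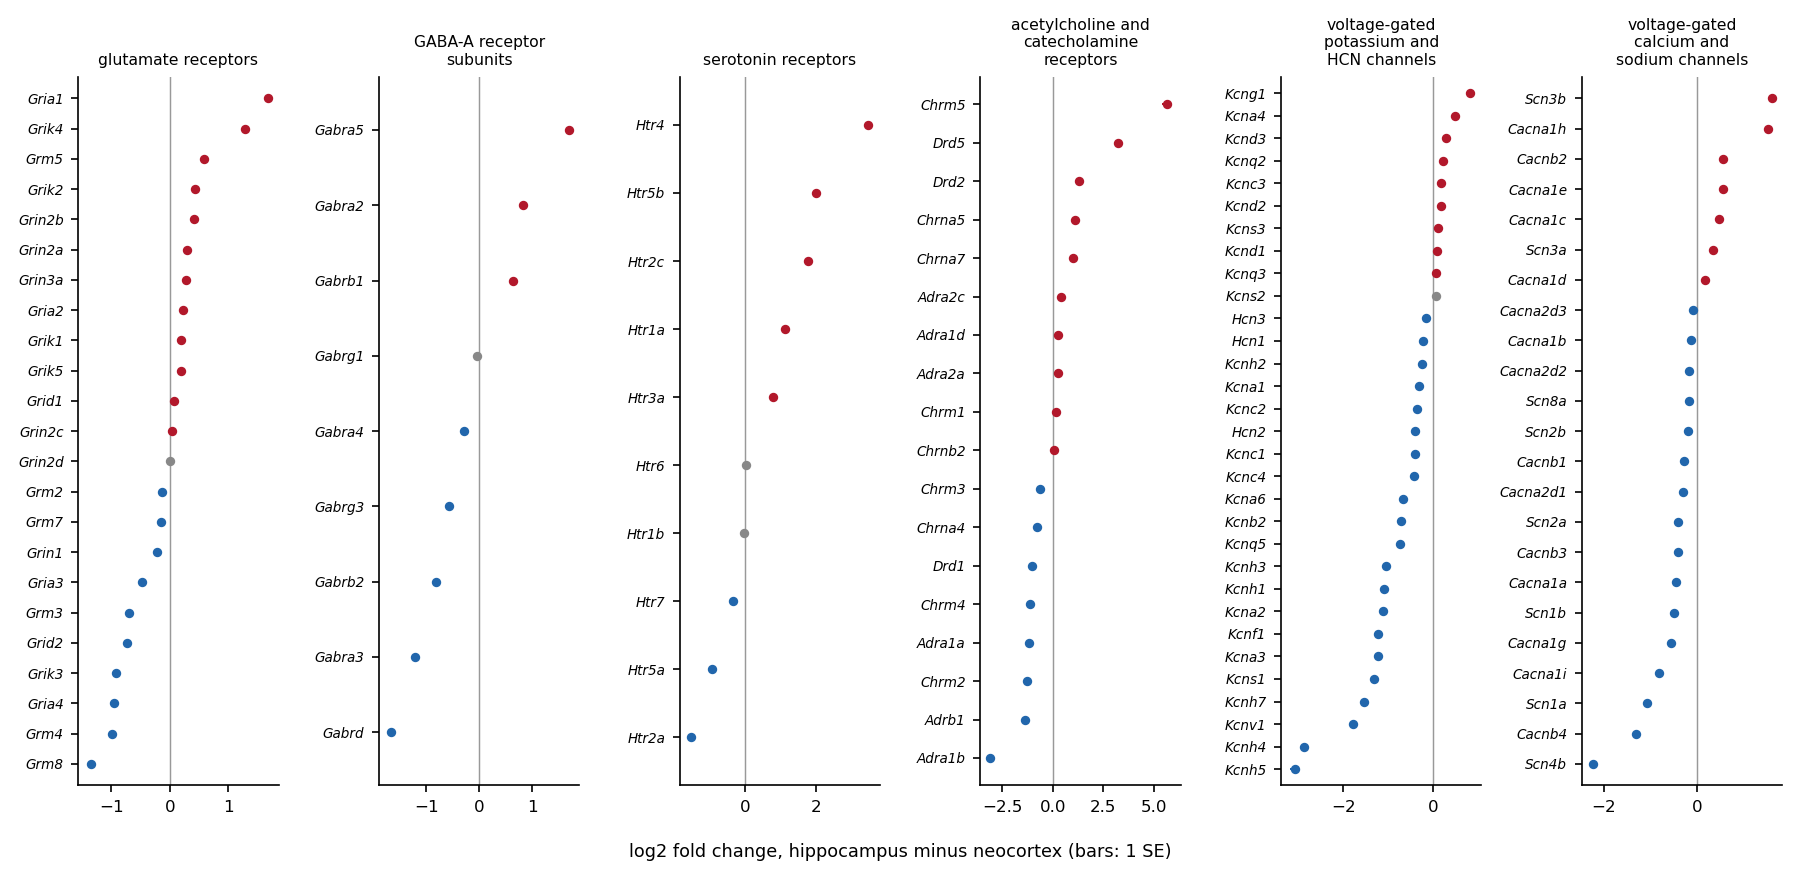
Log2 fold change, hippocampus minus neocortex (horizontal axes, with bars of 1 SE, often smaller than the point), of receptor and channel genes, 1 panel per list. Red and blue points are genes called higher and lower and grey points were not called: Gria1, Gabra5, Htr4, Chrm5 and Scn3b head their panels, and Gabrd, Htr2a, Adra1b, Kcnh5 and Scn4b close theirs.

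Receptors for serotonin, acetylcholine and catecholamines included large differences in both directions. Of 10 serotonin receptor genes tested, 5 were higher (against 39.9% of all genes), 3 lower (against 35.2%) and 2 not called. Htr4, a Gs-coupled receptor, lay between 6.58 and 11.3 CPM (median 9.54) in the hippocampus and between 0.335 and 1.31 CPM (median 0.905) in the neocortex, a log2 difference of 3.47 ± 0.09. Htr5b (2.0 ± 0.09) and the Gi-coupled Htr1a (1.12 ± 0.04) were higher, and the Gq-coupled Htr2a was lower (-1.54 ± 0.07) with Htr5a (-0.95 ± 0.04). Of 18 acetylcholine and catecholamine receptor genes, 10 were higher (55.6%, against 39.9% of all genes) and 8 lower (44.4%, against 35.2%). Drd5, a D1-class dopamine receptor, lay between 14 and 23.7 CPM (median 19.7) in the hippocampus and between 0.751 and 3.06 CPM (median 2.12) in the neocortex, a log2 difference of 3.24 ± 0.09, whereas its paralog Drd1 had -1.0 ± 0.08. Adra1b, an alpha1 adrenergic receptor, lay between 3.95 and 6.79 CPM (median 4.85) in the hippocampus and between 38.0 and 47.1 CPM (median 41.2) in the neocortex, a log2 difference of -3.08 ± 0.05. Adra1a (-1.19 ± 0.07) and the beta1 receptor Adrb1 (-1.36 ± 0.05) were lower as well, while Adra2c (0.42 ± 0.03) and Adra1d (0.27 ± 0.03) were higher. The muscarinic receptor genes ran from 5.65 ± 0.22 for Chrm5, at 1.34 to 3.06 CPM in the hippocampus and 0 to 0.115 CPM in the neocortex, to -1.12 ± 0.04 for Chrm4 and -1.27 ± 0.05 for Chrm2, with the abundant Chrm1 at 0.18 ± 0.02. The nicotinic alpha7 subunit gene Chrna7 had 1.03 ± 0.05.

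Voltage-gated channel genes were more often lower in the hippocampus. Of 32 potassium and HCN channel genes tested, 22 were lower (68.8%, against 35.2% of all genes; 11 over 2-fold), 9 higher (0 over 2-fold) and 1 not called, with a median of -0.39. The ether-a-go-go family members Kcnh5 (-3.09 ± 0.10), Kcnh4 (-2.88 ± 0.08), Kcnh7 (-1.53 ± 0.04), Kcnh1 (-1.09 ± 0.04) and Kcnh3 (-1.04 ± 0.02) were all lower, and Kcnh2 was nearest to even at -0.25 ± 0.04. Kcnh5 lay between 0.447 and 2.19 CPM (median 1.16) in the hippocampus and between 8.24 and 13.1 CPM (median 9.70) in the neocortex. The modulatory subunit genes Kcnv1 (-1.79 ± 0.04), Kcns1 (-1.32 ± 0.04) and Kcnf1 (-1.22 ± 0.03) were lower, and Kcng1, another such subunit, was higher (0.84 ± 0.04). Of 23 calcium and sodium channel genes, 7 were higher (30.4%, against 39.9% of all genes) and 16 lower (69.6%, against 35.2%). Scn3b, a sodium channel beta subunit, was at 231 to 288 CPM (median 247) in the hippocampus and 74.0 to 90.3 CPM (median 81.0) in the neocortex, and its paralog Scn4b was at 24.8 to 40.3 CPM (median 30.7) in the hippocampus and 101 to 174 CPM (median 145) in the neocortex. Their log2 differences were 1.62 ± 0.03 and -2.23 ± 0.05. The T-type calcium channel genes also differed in sign, Cacna1h with 1.54 ± 0.03, Cacna1g with -0.55 ± 0.03 and Cacna1i with -0.81 ± 0.02. Cacna1b, called lower at -0.12 ± 0.03, was the gene of these lists whose sign turned in another fit, to 0.02 (limma on log2 FPKM values, adjusted p = 0.515).

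Of 31 neuropeptide and peptide receptor genes tested, 12 were higher (38.7%, against 39.9% of all genes), 17 lower (54.8%, against 35.2%) and 2 not called. Npy2r, the presynaptic Y2 receptor for neuropeptide Y, lay between 32.9 and 44.5 CPM (median 38.4) in the hippocampus and between 1.5 and 2.95 CPM (median 2.18) in the neocortex, a log2 difference of 4.15 ± 0.05. The ligand gene Npy was lower in the hippocampus (-0.98 ± 0.03), and the other receptor genes Npy5r (0.39 ± 0.06) and Npy1r (-0.07 ± 0.03, adjusted p = 0.056) were close to even. Cckbr, the cholecystokinin B receptor, lay between 7.47 and 16 CPM (median 12.3) in the hippocampus and between 89.4 and 112 CPM (median 105) in the neocortex, a log2 difference of -3.14 ± 0.06, with its ligand gene Cck at -0.40 ± 0.02. The genes of the stress peptide Crh (-2.18 ± 0.09) and its receptor Crhr1 (-1.46 ± 0.04) were both lower. Adcyap1, the PACAP peptide gene, was lower (-2.17 ± 0.05), and its receptor gene Adcyap1r1 was slightly higher (0.22 ± 0.02). Neurotensin (Nts) was at 4.11 to 6.04 CPM in the hippocampus and 0.0847 to 0.417 CPM in the neocortex.

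Hormone receptor genes numbered 14 tested, 6 higher, 6 lower and 2 not called. The shares, 42.9% in each direction, were not far from the 39.9% higher and 35.2% lower of all genes. Nr3c2 lay between 137 and 194 CPM (median 155) in the hippocampus and between 28.6 and 35.6 CPM (median 31.4) in the neocortex, a log2 difference of 2.35 ± 0.03, and the Nr3c1 difference was -0.60 ± 0.02. Thyroid hormone receptors differed in sign, Thra with 0.47 ± 0.02 and Thrb with -1.03 ± 0.03. The progesterone receptor gene Pgr was lower, at 7.68 to 11.2 CPM (median 9.03) in the hippocampus and 16.9 to 23.6 CPM (median 20.7) in the neocortex (-1.18 ± 0.04). The oxytocin receptor gene Oxtr was higher, at 7.85 to 13.6 CPM (median 11.1) in the hippocampus and 4.54 to 7.13 CPM (median 5.96) in the neocortex (0.90 ± 0.07). Its difference was 0.56 in virgins, 0.71 at PC14, 1.05 at PC16, 1.06 at PP1, 0.96 at PP3 and finally 1.09 at PP10, a change not called in any of the 3 tests of stage. The insulin receptor gene Insr had 0.01 ± 0.02 (adjusted p = 0.77). Prlr, Crhr2 and Lepr are described with the choroid plexus, since their hippocampal levels were low in the same 5 mice.

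Guidance and adhesion genes, which direct axons in development and remain expressed in the adult, differed in both directions. Of 55 Eph, ephrin, semaphorin, plexin, slit and netrin genes tested, 30 were higher (54.5%), 21 lower (38.2%) and 4 not called, beside 39.9% higher and 35.2% lower over all genes. Among receptors, Epha6 (2.23 ± 0.05), Epha7 (1.38 ± 0.05) and Epha3 (1.30 ± 0.07) were higher and Ephb6 lower (-1.29 ± 0.02). The ephrin ligand Efnb3 was higher (1.23 ± 0.03), and Efna5 lay between 4.02 and 10.2 CPM (median 7.62) in the hippocampus and between 33.1 and 41.2 CPM (median 38.7) in the neocortex (-2.31 ± 0.05). Both neuropilins, the ligand-binding receptors for class 3 semaphorins, were higher (Nrp2 1.70 ± 0.04, Nrp1 1.52 ± 0.03), and Sema3a, a ligand of Nrp1, lay between 1.79 and 4.14 CPM (median 2.94) in the hippocampus and between 18.3 and 29.8 CPM (median 25.3) in the neocortex (-3.06 ± 0.07). Plxnd1 was lower (-1.80 ± 0.04) and its ligand Sema3e higher (0.85 ± 0.03). Slit1, a repellent ligand of Robo receptors, was higher, at 202 to 252 CPM in the hippocampus and 51.0 to 65.0 CPM in the neocortex (1.93 ± 0.03). Of 15 classical cadherin genes tested, 9 were lower (60.0%, against 35.2% of all genes), led by Cdh6 (-2.04 ± 0.09) and Cdh7 (-1.90 ± 0.07). Another 4 were higher (26.7%, against 39.9%), led by Cdh9 (1.5 ± 0.06), and 2 were not called.

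Interneuron genes were more often lower in the hippocampus, and the classes differed. Of 23 tested, 5 were higher (21.7%, against 39.9% of all genes), 13 lower (56.5%, against 35.2%) and 5 not called, with a median of -0.15. The GABA-synthesising enzyme genes Gad1 (-0.22 ± 0.02) and Gad2 (0.03 ± 0.02, adjusted p = 0.17) and the Dlx factors Dlx1, Dlx2, Dlx5 and Dlx6 (from -0.02 to 0.00, none called) were close to even. Vip, the marker of disinhibitory interneurons, lay between 7.62 and 12.5 CPM (median 10.3) in the hippocampus and between 28.8 and 36.7 CPM (median 33.4) in the neocortex (-1.72 ± 0.05). Pvalb, of fast-spiking cells, was lower (-1.24 ± 0.04), Sst was slightly higher (0.18 ± 0.02), and Nos1, the neuronal nitric oxide synthase, was at 97.2 to 132 CPM (median 113) in the hippocampus and 29.7 to 44.0 CPM (median 36.3) in the neocortex (1.62 ± 0.03).

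Of 16 genes listed for adult neurogenesis and proliferation, 10 passed the filter on low values. Of these 10, 5 were higher (against 39.9% of all genes), 4 lower (against 35.2%) and 1 not called. Igfbpl1, found in newborn neurons, was at 2.13 to 5.38 CPM (median 3.86) in the hippocampus and 0 to 1.25 CPM (median 0.0930) in the neocortex, and Calb2, of immature granule cells and of some interneurons and mossy cells, had 1.93 ± 0.07. Dcx, the doublecortin gene of migrating neurons, was lower (-0.64 ± 0.04), at 12.0 to 15.9 CPM in the hippocampus and 16.5 to 25.1 CPM in the neocortex, and Stmn1 was lower at -1.39 ± 0.02. The 6 members that did not pass were Eomes, Draxin, Mki67, Top2a, Cdk1 and Neurog2.

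Activity-regulated genes, transcribed within minutes to hours of neuronal firing, were lower in the hippocampus in most cases. Of 24, 18 were lower (against 35.2% of all genes), 4 higher (against 39.9%) and 2 not called, with a median of -1.14. Over 2-fold lower were 13 of the 24, against 3.51% of all genes. Fos lay between 3.52 and 32.2 CPM (median 11.1) in the hippocampus and between 7.20 and 137 CPM (median 46.3) in the neocortex, a log2 difference of -2.02 ± 0.05. Both regions varied widely between mice, so the ranges overlapped. In the hippocampus Fos was at 28.3 to 32.2 CPM in virgins, 11.7 to 27.8 CPM at PC14, 3.52 to 11.4 CPM at PC16, 7.74 to 13.6 CPM at PP1, 5.82 to 6.62 CPM at PP3 and 9.74 to 14.5 CPM at PP10. In the neocortex it was at 111 to 137 CPM in virgins, 52.8 to 111 CPM at PC14, 7.20 to 55.0 CPM at PC16, 42.2 to 46.2 CPM at PP1, 21.1 to 26.9 CPM at PP3 and 33.7 to 63.4 CPM at PP10. Within each mouse the hippocampal level was the lower in 18 of 18, and the stage differences kept between -2.12 and -1.86. Egr2 (-2.62 ± 0.07), Egr1 (-2.05 ± 0.06), Nptx2 (-1.63 ± 0.04), Homer1 (-1.58 ± 0.04), Npas4 (-1.46 ± 0.07) and Arc (-1.45 ± 0.10) were lower with it. Jun, which pairs with Fos in the AP-1 factor, was higher, at 142 to 182 CPM (median 161) in the hippocampus and 41.8 to 76.5 CPM (median 61.2) in the neocortex (1.43 ± 0.04), as were Nr4a2 (1.05 ± 0.09), Nr4a3 (0.87 ± 0.10) and Ptgs2 (0.23 ± 0.06). Bdnf had 0.05 ± 0.05 (adjusted p = 0.42). Of 19 clock genes, 16 were lower (84.2%, against 35.2% of all genes), 1 higher (5.26%, against 39.9%) and 2 not called (median -0.40). Rora (-1.43 ± 0.03), Npas2 (-0.97 ± 0.04) and Cry1 (-0.72 ± 0.04) were among the lower and Bhlhe41 (0.19 ± 0.03) was the higher.

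Most glial and vascular genes differed little, with 2 astrocyte genes over 2-fold higher in the hippocampus. All 15 myelin and oligodendrocyte genes were higher in the hippocampus (against 39.9% of all genes), but with a median of only 0.17. The libraries did not overlap for 1 of them (Trf, 0.48 ± 0.03), whereas they did not overlap for 21.8% of all genes. Without the 5 mice low in choroid plexus RNA, 12 of the 15 were called (not Mag, Aspa or Gjb1). By stage, 14 were called in virgins, 8 at PC14, 13 at PC16, 11 at PP1, and 4 each at PP3 and PP10. Mbp, the myelin basic protein gene, was at 2381 to 3480 CPM (median 2986) in the hippocampus and 2311 to 2838 CPM (median 2655) in the neocortex. Of 14 astrocyte genes, 8 were higher (57.1%, against 39.9% of all genes) and 5 lower (35.7%, against 35.2%), with a median of 0.10. Gfap, the intermediate filament gene and 1 of the 2 over 2-fold, lay between 334 and 573 CPM (median 402) in the hippocampus. In the neocortex Gfap lay between 115 and 213 CPM (median 153), a log2 difference of 1.44 ± 0.03, whereas Aldh1l1 had -0.64 ± 0.02. Microglial genes had the list median nearest to 0, with differences between -0.10 and 0.05. Of the 12, 10 were not called and 2 were lower (Csf1r and Cx3cr1), whereas 75.1% of all genes were called. Endothelial genes (2 of 12 higher, 6 lower, median -0.09) and blood genes (2 of 5 lower, median -0.14) were also close to even. Blood RNA varied between mice, with a summed level of 115 to 717 CPM in the hippocampus and 144 to 875 CPM in the neocortex, and the globin paralogs Hba-a1 and Hba-a2 share reads.

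Genes of neighbouring tissues were checked for what dissection might carry along. The 11 striatal genes summed to 166 to 230 CPM in the hippocampus and 205 to 351 CPM in the neocortex. Of the 9 tested, 6 were lower in the hippocampus (66.7%, against 35.2% of all genes), 1 was higher (11.1%, against 39.9%) and 2 were not called. The 8 thalamic genes summed to 74.2 to 104 CPM in the hippocampus and 73.1 to 98.2 CPM in the neocortex. Among them 4 were higher (against 39.9% of all genes), 3 lower (against 35.2%) and 1 not called. Prkcd was higher at 1.67 ± 0.07 and Ramp3 lower at -1.91 ± 0.06. All 8 ependymal genes were higher in the hippocampus (against 39.9% of all genes), with a median of 2.02. Their summed level was 61.8 to 102 CPM, against 35.3 to 55.1 CPM in the neocortex. The part of these neighbouring tissues in the other results was not tested.

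Choroid plexus genes had the highest median of the 33 lists, with wide differences between mice. All 18 were higher in the hippocampus by over 2-fold (against 4.63% of all genes), with a median of 5.41. The libraries did not overlap for 2 of them only (Kl and Calml4), whereas they did not overlap for 21.8% of all genes. Ttr, the thyroxine carrier that this epithelium secretes, was at 647 CPM in the hippocampus of mouse VirB, 1255 CPM in VirM, 302 CPM in VirO, 78.6 CPM in P156 and 52.5 CPM in P353, and at 2215 to 5021 CPM in the other 13 hippocampus libraries, against 8.20 to 200 CPM in the neocortex. The summed level of the list was 202 to 7478 CPM (median 4246) in the hippocampus and 166 to 476 CPM (median 198) in the neocortex. All 3 virgin mice are among the 5, so the stage and the choroid plexus content of the virgin libraries cannot be told apart.

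Several receptor and secreted-factor genes followed the same mice. Prlr, the prolactin receptor, was at 3.41 to 16.6 CPM in the hippocampus of the 5 mice and at 40.2 to 157 CPM in that of the other 13, against 0.596 to 4.67 CPM in the neocortex, and its region difference was 5.75 ± 0.19 over 18 mice and 6.12 ± 0.13 over the 13. Htr2c, a serotonin receptor of the choroid plexus and of neurons, was at 26.4 to 42.7 CPM in the hippocampus of the 5 and 53.1 to 97.6 CPM in that of the 13, against 12.3 to 23.5 CPM in the neocortex. Igf2, an insulin-like growth factor, was at 74.7 to 132 CPM in the hippocampus of the 5 and 236 to 577 CPM in that of the 13, against 63.2 to 134 CPM in the neocortex, so that in the 5 mice its hippocampal level lay within the neocortical range. Igf2 belongs to the list of meninges and fibroblasts. Of 10 tested members, 7 were higher in the hippocampus (against 39.9% of all genes), 2 lower (against 35.2%) and 1 not called (median 0.40). The summed level of the 11 members of this list was 164 to 262 CPM in the hippocampus of the 5 and 346.7 to 749 CPM in that of the 13, without overlap. In the neocortex it was 127 to 238 CPM. Without Igf2 the sums were 81.4 to 130 CPM, 106 to 173 CPM and 64.1 to 110 CPM in the same groups, and the hippocampal ranges overlapped. The part of meningeal and choroid plexus RNA in these genes was not tested. Leaving out these 5 mice, an alternative added after the values were seen, the log2 differences were 2.02 ± 0.09 for Htr2c, 1.96 ± 0.10 for Igf2, 1.61 ± 0.12 for Lepr and 3.18 ± 0.17 for Crhr2, against 1.77 ± 0.12, 1.56 ± 0.17, 1.19 ± 0.19 and 2.84 ± 0.18 with all 18. Fibcd1 (4.55), Lamp5 (-3.13), Gria1 (1.62), Gabra5 (1.66) and Nr3c2 (2.28) were close to their values over 18 mice.

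Over 2-fold region differences were called in similar numbers at the 6 stages. They numbered 1104 in virgins (7.75%), 1231 at PC14 (8.65%), 1155 at PC16 (8.11%), 1241 at PP1 (8.72%), 1193 at PP3 (8.38%) and finally 1275 at PP10 (8.95%), each from 3 pairs of libraries in 1 fit. The split by direction varied more: 549 were higher and 555 lower in virgins, whereas 684 to 749 were higher and 471 to 534 lower at the 5 other stages. The choroid plexus list moved with this, with a median of 3.74 in virgins, and between 4.34 and 6.25 at the other stages, and its part in the counts was not tested. The difference was over 2-fold at all 6 stages for 770 genes, 417 higher in the hippocampus and the others lower, and at 1 stage or more for 1726. Gabra5, for example, ran from 1.59 to 1.74 over the stages, Prox1 from 2.52 to 3.05 and Mef2c from -2.70 to -2.51.

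Whether the region difference changed with stage was tested in 3 ways, and few genes passed. A test of any change over the 6 stages called 196 genes (1.38%), of which 20 were among the 1159 over 2-fold, and 2256 had an unadjusted p under 0.05. The contrast of the 15 dams with the 3 virgins called 581 genes (4.08%; 2723 at an unadjusted p under 0.05), with a difference more positive in dams for 330 and more negative for 251, and over 2-fold in size for 52. The contrast of the 9 postpartum with the 6 pregnant dams called 12 genes (0.0843%; 1226 at an unadjusted p under 0.05). These counts depended on single mice. The dams contrast called 35 genes when mouse VirB was left out, 125 when VirO was and 809 when P353 was. The test over the 6 stages called 80 genes without VirB, 97 without VirO, 120 without P357, 124 without P1052, 125 without P149, 128 without E1468, 130 without E1654 and 412 without P353. The postpartum contrast called 3 genes without E1467 or P357, 4 without E1468 or P1052, 5 without E1654, 6 without P347 or P1071, 7 without E1655 or E1658, and 28 without P353.

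Most of the calls between stages fell along 1 divide, noticed after the values were seen. Over the 15 pairs of stages, the 8 pairs of a virgin or PC14 group with a later one called 10 to 318 genes each, whereas the 7 other pairs called 0 to 12. Most of these calls came from virgins: PC16, PP1, PP3 and PP10 gave 231, 318, 139 and 307 calls against virgins. Against PC14 the same stages gave 26, 48, 45 and 10. The counts across the divide and on 1 side of it overlapped. PP10 against PC14, across it, called 10 genes, and PP10 against PP1, on 1 side, called 12. Between PC14 dams and virgins, which differ in pregnancy, 0 genes were called by edgeR. This pair had 1402 genes at an unadjusted p under 0.05, more than PC16 against PC14 (953) and PP10 against PC14 (859), which lie across the divide. The test of any change called 3 genes when only PC16, PP1, PP3 and PP10 entered, and the postpartum contrast called 1 gene with PC16 as the only pregnancy stage. Both tests compared fewer mice than the full ones, so their smaller counts cannot be told apart from lower power. The divide was found in these same data, so these counts are no separate support for it. Pregnant dams lay on both sides of this divide, at PC14 and at PC16. The later stages, nursing among them, and any step of handling that differed between these mice cannot be told apart here.

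Of the 10 named genes of the dams contrast, all passed in each of the 18 fits that left out 1 mouse. Cdr1, which codes for a neural protein and lies opposite the circular RNA Cdr1as, was at 67.9 to 83.1 CPM in the hippocampus of virgins and 61.2 to 75.4 CPM at PC14, then at 40.9 to 49.2 CPM at PC16, 42.6 to 46.2 CPM at PP1, 38.7 to 43.7 CPM at PP3 and 36.3 to 45.7 CPM at PP10. In the neocortex it was at 66.5 to 71.6 CPM in virgins, 61.2 to 74.4 CPM at PC14, 91.9 to 119 CPM at PC16, 108 to 130 CPM at PP1, 95.5 to 108 CPM at PP3 and 71.1 to 96.6 CPM at PP10. So the regions were level in virgins (log2 difference 0.14) and at PC14 (0.07), and the hippocampus was lower at PC16 (-1.27), PP1 (-1.36), PP3 (-1.31) and PP10 (-1.10). The change was -1.13 ± 0.08 for dams minus virgins (adjusted p = 2.6e-09) and -0.65 ± 0.07 for postpartum minus pregnancy (adjusted p = 7.7e-06). The library kit did not mark strand, so reads of Cdr1 and of its antisense partner cannot be told apart. Malat1, a nuclear long noncoding RNA, showed the same divide in the hippocampus, at 3001 to 3842 CPM in virgins and 2887 to 3357 CPM at PC14, and 1761 to 2612 CPM over the 4 later stages. Its region difference was 1.12 in virgins, 1.29 at PC14, 0.42 at PC16, 0.71 at PP1, 0.51 at PP3 and finally 0.23 at PP10. Scarna2, a small Cajal body RNA, had changes of -1.51 ± 0.18 for dams minus virgins and -1.12 ± 0.15 for postpartum minus pregnancy.

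Adamts1, a secreted metalloprotease gene, differed in another way, through the neocortex. It was at 18.3 to 27.8 CPM in the hippocampus of dams and 22.4 to 23.6 CPM in that of virgins, and at 8.57 to 15.1 CPM in the neocortex of dams and 17.7 to 20.4 CPM in that of virgins. Its change was 0.84 ± 0.09 (adjusted p = 7.0e-06). Foxo6 (0.61 ± 0.08), Btg2 (0.90 ± 0.12) and Klf4 (0.91 ± 0.13) also had a more positive region difference in dams: Btg2, an antiproliferative early-response gene, was at 14.5 to 21.9 CPM in the hippocampus of dams and 22.8 to 31.2 CPM in that of virgins, and at 9.66 to 28.9 CPM in the neocortex of dams and 30.8 to 60.1 CPM in that of virgins. Both of its regions were lower in dams than in virgins without overlap. The scaffold genes Pclo (-0.34 ± 0.04) and Akap9 (-0.43 ± 0.06) and Btbd3 (-0.33 ± 0.05) had a more negative difference in dams.

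Of the activity-regulated genes, 10 of 24 were called in the dams contrast, against 4.08% of all genes tested, and 8 of the 10 were more positive in dams, against 330 of the 581 calls over all genes. Without mouse VirB, 1 of the 24 was called, and 0 were called for PC14 against virgins. Choroid plexus genes gave 1 call of 18 (Kcnj13), although their median change was 2.1. The 3 virgins were among the 5 mice low in choroid plexus RNA, and the part of this in the change was not tested. The named genes of the postpartum contrast besides Cdr1, Malat1 and Scarna2 had changes under 0.5 in size. Slit2 (0.45 ± 0.08), Ahi1 (0.24 ± 0.04), Gda (0.22 ± 0.04), Tenm2 (0.35 ± 0.07), and Ftx (0.41 ± 0.08) were more positive, and Cryab (-0.20 ± 0.04) and Lsm12 (-0.24 ± 0.05) more negative, and these 7 passed in 4 to 13 of the 18 fits that left out 1 mouse.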

How the data were processed

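Total RNA from 36 dissected regions (5 µg each) was made into NEBNext Ultra libraries with 12 PCR cycles by the authors, a kit that does not mark strand. Per the labels, reads were trimmed with Trimmomatic 0.32 and mapped with TopHat2 2.0.8, and the methods name Ensembl release 75. The deposited counts are whole reads per gene, counted with easyRNASeq, and the deposited FPKM values are from Cufflinks 2.1.1. The authors' notes also name edgeR.

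Here, 14239 genes reached 1 FPKM in every mouse of some region and stage group (3 mice). Their counts were fitted with edgeR 4.0.16 in R 4.3.3. The fits used the quasi-likelihood F test, TMM factors over the 36 libraries, mouse as a block, and Benjamini-Hochberg adjustment over all genes tested. Another 102 genes averaging 50 counts or more, but with FPKM listed at 0 throughout, were not tested, among them Map3k15. The SE is the log2 difference divided by the square root of its F. The region difference comes from a fit with 1 region term for all 18 mice. The differences within stages and the stage tests come from a separate fit with a region term per stage. Both libraries of a mouse come from 1 animal, which pairs them: the correlation of their deviations from the group means was -0.137 to 0.181 (median 0.104) over 18 mice, over 0.1 in 9. No sample file was a copy: 36 pairs of same-group libraries all differed by more than counting noise. Totals of 8875029 to 14022299 counts limit precision for low genes, and CPM intervals were not computed.

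The 33 gene lists (575 entries, 543 genes, 500 tested; 44 entries under the filter), the naming rule and the tests were chosen with earlier results of these data known. Named genes were the list members, the 15 highest and 15 lowest region differences with a mean of at least 5 CPM and 1 sign in 18 mice, and up to 10 genes by p for each stage test. Alternatives were no replicate block, DESeq2 1.42.0, its size factors, TMM over 72 libraries, filterByExpr, no filter, limma 3.58.1 on log2(FPKM + 1) or log2(FPKM + 0.1), a fit per stage, and leaving out each mouse or mice P156 and P353. Leaving out other sets of mice was added after the values were seen. Scripts were tested on simulated counts. Some genes that enter the counts and tests are not reported here by name or drawn in the plot of receptor and channel genes.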

Additional observations from a re-analysis of the deposited data

Results flagged for a closer look

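The region difference changed with stage by a test of the change itself for 196 genes over the 6 stages, 581 genes in dams minus virgins and 12 genes in postpartum minus pregnancy (edgeR). In dams minus virgins the named genes had log2 changes of -1.13 (Cdr1), 0.84 (Adamts1), -1.51 (Scarna2), -0.49 (Malat1), -0.34 (Pclo), 0.61 (Foxo6), 0.90 (Btg2), -0.43 (Akap9), -0.33 (Btbd3) and 0.91 (Klf4). In postpartum minus pregnancy they had -0.65 (Cdr1), -1.12 (Scarna2), -0.38 (Malat1), 0.45 (Slit2), 0.24 (Ahi1), 0.22 (Gda), -0.20 (Cryab), 0.35 (Tenm2), -0.24 (Lsm12) and 0.41 (Ftx).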

How the results depend on the processing

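The count of genes over 2-fold between the regions was 1149 to 1172 when 1 mouse was left out, and 1152 of the 1159 were also called by DESeq2. It was 2588 with no filter and 601 with limma on log2(FPKM + 1), which shrinks low genes. The per-stage counts were 580 (virgins), 679 (PC14), 618 (PC16), 648 (PP1), 631 (PP3) and 695 (PP10) with limma, and 1902 (PC14), 1876 (PP1) and 1933 (PP10) with no filter. Leaving out 1 mouse they were 1055 to 1135, 1176 to 1281, 1132 to 1165, 1165 to 1319, 1146 to 1211 and 1247 to 1297 in stage order. The count at an adjusted p under 0.05 was 10562 to 10674 without 1 mouse.

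The stage tests moved more. With no replicate block, so without the pairing by mouse, the 6-stage test called 54 genes, the dams contrast 197 and the postpartum contrast 3. No filter gave 1348, 1171 and 169, limma 24, 84 and 3, and leaving out mice P156 and P353 gave 456, 931 and 48. DESeq2 called 175 in the dams contrast and 6 in the postpartum one. Leaving out 1 mouse gave 80 to 412, 35 to 809 and 3 to 28. Of the alternatives added after the values were seen, fits without the virgin and PC14 mice called 3 genes in the 6-stage test, PC14 as the only dams 0, PC16 as the only pregnancy stage 1, and fits without the 5 mice low in choroid plexus RNA 71 in the 6-stage test and 66 in the postpartum one. The cause was not tested.

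Of 15090 values of named genes under the alternatives, 14776 kept direction and side of the threshold, 227 lost the call, 85 gained it and 2 reversed, both of Cacna1b with limma (0.0248 on log2(FPKM + 1), 0.0259 on log2(FPKM + 0.1)). The share of calls that were higher in the hippocampus was 53.1%, and 49.8 to 58.0% under the alternatives.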
